A study of Homo sapiens with 8 samples.

Results

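Compound 6, a bisphenol with cyclohexyl groups, was compared with its solvent control, DMSO, in CYP2C19-overexpressing HepG2 cells. It is an antioxidant of plastics in which a methylene bridge joins 2 methylphenol rings, each with a cyclohexyl group beside its hydroxyl group. The HepG2 line derives from a human liver cancer, and CYP2C19 is a cytochrome P450 enzyme that oxidises many drugs. The comparison took the 2 libraries labelled with the cyclohexyl compound and the 2 labelled DMSO, 4 of the 8 libraries of the study, and 13400 genes were tested. The other 4 libraries came from cells given compound 4, the same bisphenol with tert-butyl in place of cyclohexyl groups, or compound 5, in which an ethylidene bridge joins 2 phenol rings that each carry 2 tert-butyl groups, with 2 libraries each. The cells of all 4 groups overexpressed CYP2C19, grew with blasticidin in the medium and were harvested after 24 h of treatment. Each compound was given at its own IC50, an inhibitory concentration measured for it in an assay with a longer treatment. The concentrations thus differed between compounds, although the paper calls the IC50 values of compounds 4, 5 and 6 rather comparable. The labels name the 2 libraries of a group day 1 and day 2, which were used as replicate numbers. Nothing in the labels says that replicates came from separate cultures, so the p-values measure the spread between these libraries, which may be technical, and all results hold for a single overexpressing line.

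Liver cells build cholesterol from acetyl-CoA by way of mevalonate, and the transcription factor SREBP2 drives the genes of this pathway when sterols run low. Dividing cells raise the genes of DNA replication through E2F factors and the genes of mitosis through complexes that bind the CCAAT box and the CHR element. ATF4 raises amino acid synthesis, transport and tRNA charging under nutrient or translation stress, NRF2 raises glutathione and detoxification genes under oxidative or electrophilic stress, and AHR raises CYP1A1 in response to aromatic ligands.

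Between 9791659 and 17814595 counts per library were assigned to genes, with 10112250 and 10368600 for compound 6. CYP2C19, the overexpressed gene, lay at 27.7 and 16.4 CPM (counts scaled to the library size) in DMSO replicates 1 and 2 and at 23.9 and 21.2 CPM under compound 6, which did not pass the test (log2-fold change 0.04 ± 0.27 SE, adjusted p = 0.95). All 13 hepatocyte and HepG2 markers were above 1 CPM, and ALB, the gene of serum albumin, reached 14380 to 20660 CPM in the 4 libraries compared. The sum of these 13 markers was 56760 and 52680 CPM in DMSO and 45900 and 39580 CPM under compound 6. Of the fibroblast markers, COL1A2, DCN and LUM were at 0 in all 8 libraries. The endothelial markers TEK and KDR were also at 0 there, and the 5 endothelial markers summed to between 0.883 and 2.08 CPM in the 4 libraries compared. The leukocyte markers PTPRC, CD3E and MS4A1 were at 0, and LYZ, at 1570 to 2164 CPM, made up nearly all of the sum of the 6 leukocyte markers (1601 to 2189 CPM). The 7 fibroblast markers summed to between 17.7 and 26.9 CPM, from PDGFRB and ACTA2, and the 4 bile duct markers to between 427 and 494 CPM. In such bulk samples, fewer cells of a kind and less RNA per cell cannot be told apart.

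In the fit of all 8 libraries, 77 of the 13400 genes passed an adjusted p of 0.05 (quasi-likelihood test of edgeR, adjusted after Benjamini and Hochberg), which is 0.575% of the genes. Of these, 66 rose (0.493%) and 11 fell (0.0821%). The increases had a median log2-fold change of 1.36 and ran from 0.64 to 3.20, and 50 of them were at least 1 on the log2 scale. The median over all genes tested was 0.02. An unadjusted p under 0.05 (edgeR) was reached by 2490 of the 13400 genes. The counts of list members at that level, given below, are to be read against this share. The libraries of the 77 genes did not overlap between the groups. Over all genes, both compound 6 libraries lay above both DMSO libraries for 3928 genes (29.3%) and below both for 3489 genes (26.0%). In 60 of the 66 increases compound 6 replicate 2 lay above replicate 1, and in 7 of the 11 decreases it lay below. Among the other decreases, ENSG00000260342 and ENSG00000285953 had 0 counts in both compound 6 libraries. The matching share over all genes was not taken.

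A fit of only the 4 libraries compared called 1023 of 12998 genes (7.87%), of which 570 were higher (4.39%) and 453 lower (3.49%) under compound 6. These 1023 genes held all 77 genes of the fit of 8 libraries. The counts of list members called in either fit, given below, are to be read against the shares over all genes. Replicates varied with a coefficient of 0.0957 in the fit of 4 libraries and of 0.1215 in that of 8. The calls of the larger fit lay close to the threshold, as 48 of the 77 genes had an adjusted p of at least 0.04. With the replicate number as a block, 68 genes passed, 43 of them among the 77. Without DMSO replicate 1, DMSO replicate 2 or compound 6 replicate 2, the larger fit called 5, 2 and 4 genes. It called 432 and 396 genes without compound 5 replicate 1 or 2, 123 without compound 4 replicate 2, and the fit of 4 libraries called 265 genes without DMSO replicate 2. The direction of none of the 77 genes changed when 1 library was left out, and none of their log2-fold changes moved by over 1.5 times. Beside a gene whose call was lost with the block, the blocked adjusted p is given. In what follows, a gene that "rose" or "fell" passed in the fit of 8 libraries unless the fit of 4 is named.

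By the number of genes called, compound 6 was the weakest of the 3 treatments in the fit of 8 libraries, but not in every fit. In the fit of all 8 libraries, compound 4 called 1275 genes (9.51%) and compound 5 called 1112 (8.30%) against the same DMSO libraries. Compound 6 also had the smallest median absolute log2-fold change over all genes, at 0.206, against 0.247 for compound 4 and 0.262 for compound 5. When each compound was fitted with DMSO alone, 1553 genes passed for compound 4, 847 for compound 5 and 1023 for compound 6, so that the order by number of genes depended on the fit.

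**Figure D1:**
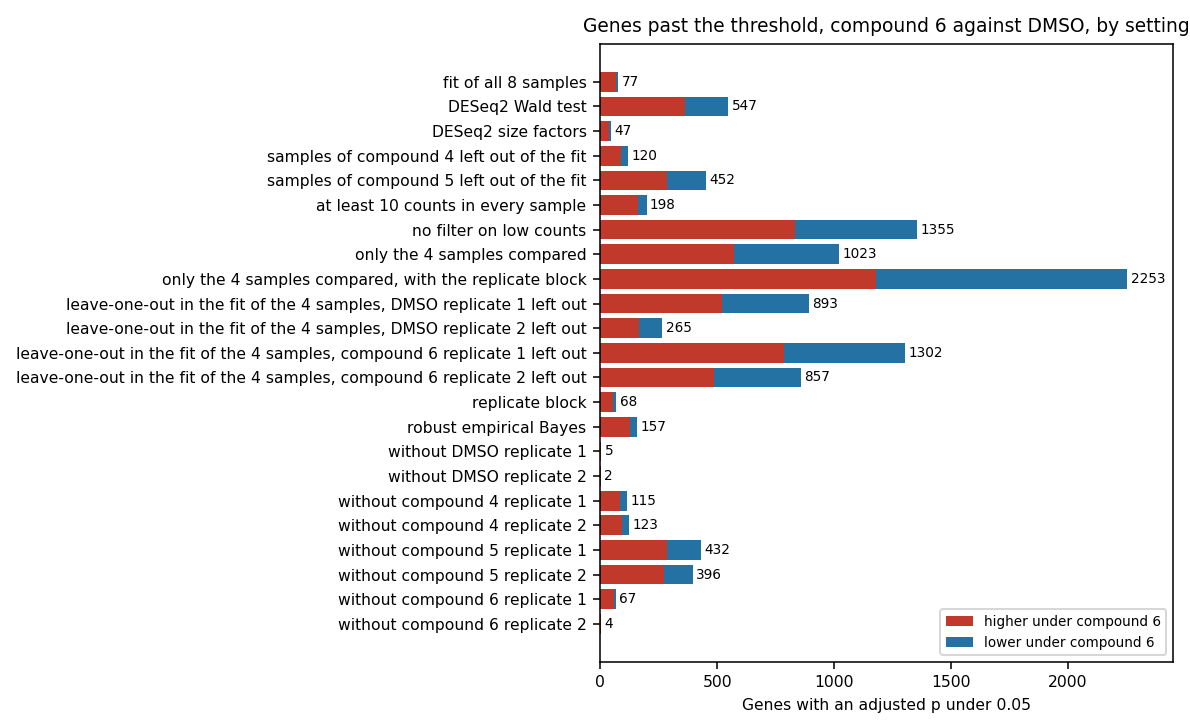
Number of genes past an adjusted p of 0.05 for compound 6 against DMSO in each fit, as stacked bars of genes higher (red) and lower (blue) under compound 6. The bars run from 2 genes without DMSO replicate 2 to 2253 in the fit of the 4 libraries with the replicate block, against 77 in the fit of all 8 libraries.

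The largest increases were those of genes for a calcium-binding protein, a cell surface glycoprotein and a transporter. S100A3, an EF-hand protein of the S100 family, had 1.54 and 0.586 CPM in DMSO and 7.06 and 11.9 CPM under compound 6 (log2-fold change 3.20 ± 0.50 SE, adjusted p = 0.040). Its gene overlaps S100A4 on the same strand, so that reads may be split between them. CDCP1, a transmembrane glycoprotein that SRC family kinases phosphorylate, rose from 1.03 and 0.502 CPM to 4.22 and 8.05 CPM (3.03 ± 0.48 SE, adjusted p = 0.043). For both genes compound 6 replicate 2 lay well above replicate 1, and neither passed with the replicate block (adjusted p = 0.051 and 0.052). SLC16A6, a member of the monocarboxylate transporter family, was more even, with 5.53 and 4.52 CPM in DMSO and 25.8 and 26.0 CPM under compound 6 (2.37 ± 0.17 SE, adjusted p = 0.0011, 9.86e-29 to 0.028 over 22 alternatives). CYP24A1, the hydroxylase that inactivates vitamin D, rose from 133 and 87.3 CPM to 465 and 489 CPM (2.12 ± 0.19 SE, adjusted p = 0.0056, 6.44e-57 to 0.036 over 22 alternatives). SLC16A6 and CYP24A1 passed in all 22 alternatives and were the 2 genes called without DMSO replicate 2.

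The next genes by size were CD22, RENBP, GLIPR1, GDF15, PLCD3, ESAM, CYP1A1 and JAG1. CD22, known as a lectin of B cells, rose from 6.25 and 4.10 CPM to 21.4 and 25.8 CPM, while the B cell marker MS4A1 was at 0 in every library. RENBP, which encodes the renin-binding protein, rose from 1.03 and 1.09 CPM to 4.02 and 5.21 CPM. GLIPR1 rose from 2.97 and 2.35 CPM to 8.54 and 12.6 CPM. The 3 genes had log2-fold changes of 2.20, 2.11 and 2.00 with adjusted p = 0.030, 0.047 and 0.031. GDF15, a secreted stress cytokine, was the most abundant of the leading genes, at 384 and 255 CPM in DMSO and 871 and 1657 CPM under compound 6 (1.99 ± 0.35 SE). PLCD3, a phospholipase C, rose from 15.4 and 12.8 CPM to 40.3 and 69.6 CPM, and ESAM, an adhesion molecule of endothelial cells and platelets, from 3.79 and 2.68 CPM to 9.71 and 14.3 CPM. The endothelial markers, as given above, were at or near 0. JAG1, a ligand of Notch receptors, rose from 183 and 156 CPM to 431 and 762 CPM (1.82 ± 0.33 SE). In GDF15, PLCD3 and JAG1 compound 6 replicate 2 was again the higher library. With the replicate block ESAM, GDF15, PLCD3 and JAG1 had an adjusted p of 0.058, where the 4 genes ran from 2.07e-61 to 0.44 over 22 alternatives.

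**Figure D2:**
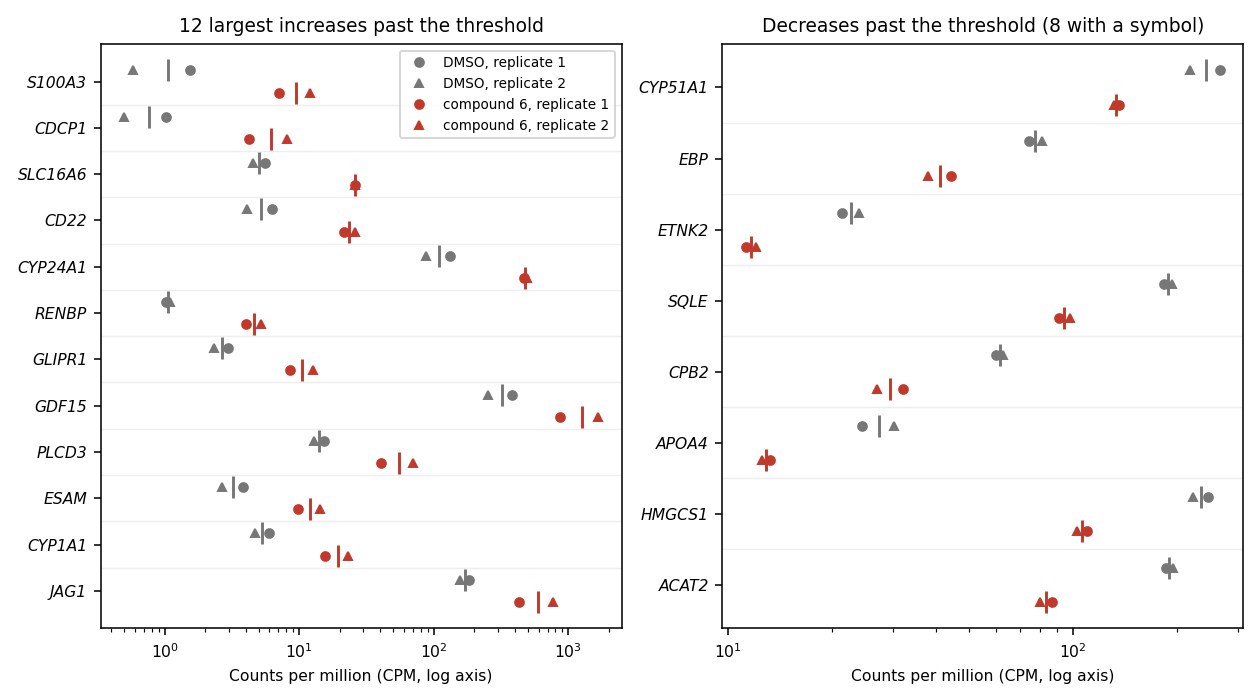
CPM in each library (log axis) for the 12 genes with the largest increase and for 8 genes with a symbol that fell, with DMSO in grey, compound 6 in red, replicate 1 as circles, replicate 2 as triangles and the group mean as a bar. The groups do not overlap in any of these genes, and the spread between the red symbols is wide in GDF15 (871 and 1657 CPM) and narrow in SLC16A6 (25.8 and 26.0 CPM).

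Further genes among the 66 increases encode transporters, signalling proteins and secreted proteins, and they are named here after their values were seen. SLC22A18 and the chloride channel subunit gene GABRE had log2-fold changes of 1.10 and 1.11. CYP2S1, a cytochrome P450, rose from 26.9 and 21.0 CPM to 59.8 and 73.4 CPM (1.48 ± 0.18 SE, adjusted p = 0.023). MCL1, which protects cells from apoptosis, rose from 129 and 126 CPM to 215 and 322 CPM (1.08 ± 0.19 SE). SAT1, which acetylates polyamines, rose from 145 and 137 CPM to 294 and 378 CPM (1.25 ± 0.22 SE). In MCL1 and SAT1 the groups did not overlap and replicate 2 of compound 6 was the higher. With the block their adjusted p was 0.051 and 0.058. TIMP2, an inhibitor of matrix metalloproteinases, rose from 8.71 and 6.78 CPM to 22.0 and 30.4 CPM (adjusted p = 0.058 with the block), and IL4R, a cytokine receptor chain, from 29.9 and 31.7 CPM to 56.6 and 73.0 CPM. The smallest increase was that of DUSP6, a phosphatase of ERK, from 183 and 162 CPM to 266 and 272 CPM (0.64 ± 0.11 SE, adjusted p = 0.048).

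Of the 9 genes with a symbol that fell, 6 were genes of cholesterol synthesis. The other 3 were APOA4, an apolipoprotein, from 24.5 and 30.2 CPM to 13.2 and 12.5 CPM, CPB2, a plasma carboxypeptidase, from 59.9 and 62.7 CPM to 32.1 and 27.0 CPM, and ETNK2, an ethanolamine kinase, from 21.4 and 24.0 CPM to 11.3 and 12.03 CPM. Their log2-fold changes were −1.09 ± 0.19 SE, −1.05 ± 0.18 SE and −0.96 ± 0.17 SE, with adjusted p = 0.048, 0.048 and 0.049, or 0.053, 0.055 and 0.058 with the replicate block. The remaining 2 genes, ENSG00000260342 and ENSG00000285953, had 0 counts in both compound 6 libraries. Against a floor of 3 counts per library, they were at least 9.58-fold and at least 8.75-fold lower than in DMSO. Both share sequence on the same strand with expressed genes, the second with CYP51A1 and KRIT1, so that the assignment of their reads is uncertain.

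In the fit of 8 libraries the cholesterol pathway had more members past the threshold than any other list. All 20 enzymes of the list were tested, and 6 fell in the fit of 8 libraries, 19 in the fit of 4, where 3.49% of all genes fell. Their median log2-fold change was −0.91. For 15 of the 20 genes RefSeq gave a window of 300 bases around the annotated start, and 12 of these windows held the letters CCAAT on either strand, against 37.2% of the 10033 windows of all tested genes. The CCAAT box binds NF-Y, a factor that SREBP2 works with. The share describes the list as chosen, whichever way its genes moved, and a link to the decreases was not tested. Of the 6 windows of genes that fell, 3 held CCAAT, those of HMGCS1, EBP and CPB2. The windows of HMGCS1 (chr5:43313363-43313662, minus strand) and EBP (chrX:48521558-48521857, plus strand) are shown because both genes fell and hold several matches. Both are in GRCh38.p14 and read 5′ to 3′ on the strand of the gene, and capitals mark CCAAT or its reverse complement, ATTGG.
HMGCS1: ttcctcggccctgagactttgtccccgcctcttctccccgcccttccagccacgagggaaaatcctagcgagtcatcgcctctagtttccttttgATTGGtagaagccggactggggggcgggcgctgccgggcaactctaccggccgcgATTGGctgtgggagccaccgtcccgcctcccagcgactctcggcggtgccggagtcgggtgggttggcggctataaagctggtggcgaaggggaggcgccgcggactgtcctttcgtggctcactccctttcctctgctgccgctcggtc
EBP: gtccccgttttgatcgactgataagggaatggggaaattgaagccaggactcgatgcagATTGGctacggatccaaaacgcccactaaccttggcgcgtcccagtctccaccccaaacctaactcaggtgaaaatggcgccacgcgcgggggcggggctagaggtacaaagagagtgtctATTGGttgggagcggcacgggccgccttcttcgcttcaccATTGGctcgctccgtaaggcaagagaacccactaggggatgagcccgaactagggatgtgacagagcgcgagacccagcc
The form TCACNCCAC of the sterol regulatory element was found in 0 of the 15 windows and in 1.11% of all windows.

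The enzymes that fell stand at different points of the pathway, and 5 of them are given here. ACAT2, which condenses acetyl-CoA, lay at 186 and 194 CPM in DMSO and at 86.7 and 80.2 CPM under compound 6 (−1.19 ± 0.21 SE, adjusted p = 0.049). HMGCS1 fell from 247 and 222 CPM to 110 and 103 CPM (−1.14 ± 0.13 SE, adjusted p = 0.012). In both genes replicates of a group were close to each other, and the groups lay far apart. ACAT2 did not pass with the replicate block (adjusted p = 0.058). SQLE, the epoxidase that commits squalene to sterols, fell from 183 and 194 CPM to 90.9 and 98.1 CPM (−0.997 ± 0.17 SE, adjusted p = 0.048). CYP51A1, which demethylates lanosterol, fell from 266 and 219 CPM to 136 and 132 CPM (−0.86 ± 0.13 SE, adjusted p = 0.038). EBP, a sterol isomerase, fell from 74.4 and 81.2 CPM to 44.4 and 37.9 CPM (−0.92 ± 0.16 SE, adjusted p = 0.048). The groups of these enzymes did not overlap either, and SQLE and EBP had an adjusted p of 0.051 and 0.057 with the block.

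The other 14 enzymes did not pass in the fit of 8 libraries, and 13 of them fell in the fit of 4. The log2-fold changes of these 13 in the larger fit ran from −1.11 for MSMO1 (adjusted p = 0.056) to −0.62 for MVK (adjusted p = 0.088). FDFT1, which makes squalene, lay at 338 and 326 CPM in DMSO and at 172 and 162 CPM under compound 6 (−0.99 ± 0.18 SE, adjusted p = 0.051). In 19 of the 20 genes both compound 6 libraries were below both DMSO libraries, and the values of the genes just outside the threshold are close to those just inside. PMVK, phosphomevalonate kinase, was the exception, with a log2-fold change of 0.02 (adjusted p = 0.98) that was as low as −0.10 when 1 library was left out. INSIG1, which retains the SREBP complex in the endoplasmic reticulum, was listed at 0 in all 8 libraries, and whether genes listed at 0 were silent or not counted was not tested.

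Of the other SREBP targets, which serve sterol uptake and fatty acid synthesis, 17 were tested. None passed in the fit of 8 libraries, where 12 had an unadjusted p under 0.05 (edgeR), and 9 fell in the fit of 4. Their median log2-fold change was −0.43. TMEM97, a sterol-binding membrane protein named here after its value was seen, missed the threshold in the larger fit (−0.78 ± 0.14 SE, adjusted p = 0.051) and passed with the replicate block (adjusted p = 0.041, 4.24e-07 to 0.44 over 22 alternatives). The 10 targets of LXR, the sterol-activated receptor, had a median of 0.12, or 0.057 without compound 6 replicate 1. SMPDL3A, at 11.8 and 8.63 CPM in DMSO and 20.7 and 17.7 CPM under compound 6, missed the threshold in the larger fit (adjusted p = 0.066) and passed in the fit of 4 and with the replicate block (adjusted p = 0.045, 0.00026 to 0.46 over 22 alternatives), and ABCG8, a sterol exporter subunit, was the lowest at −0.22.

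The genes of DNA replication and mitosis were lower in a graded way, and none passed the threshold in the fit of 8 libraries. Of 46 DNA replication genes, 24 fell in the fit of 4 libraries and none in that of 8. In the larger fit 31 had an unadjusted p under 0.05 (edgeR), against 2490 of all 13400 genes. All 46 log2-fold changes were below 0, with a median of −0.44. Of 45 mitosis genes, 29 fell in the fit of 4 libraries and none in that of 8, where 37 had an unadjusted p under 0.05, and their median was −0.58. Both compound 6 libraries were below both DMSO libraries for 43 of the 46 and 44 of the 45 genes, as for 26.0% of all genes. The windows around the starts of these genes held the E2F letters TTTCCCGC in 26.3% of 38 replication genes, against 2.61% of all windows, and the CHR letters TTTGAA in 71.8% of 39 mitosis genes, against 9.68% of all. CCAAT was held by 60.5% of the replication and 74.4% of the mitosis windows. These shares describe the lists as chosen, whichever way their genes moved, and a link to the decreases was not tested. The windows of GINS2 (chr16:85688905-85689204, minus strand), the lowest replication gene, and of KIF11 (chr10:92592880-92593179, plus strand), a mitotic kinesin, show these letters, in capitals, on either strand; GCGGGAAA and TTCAAA are the reverse complements of the E2F and CHR letters.
GINS2: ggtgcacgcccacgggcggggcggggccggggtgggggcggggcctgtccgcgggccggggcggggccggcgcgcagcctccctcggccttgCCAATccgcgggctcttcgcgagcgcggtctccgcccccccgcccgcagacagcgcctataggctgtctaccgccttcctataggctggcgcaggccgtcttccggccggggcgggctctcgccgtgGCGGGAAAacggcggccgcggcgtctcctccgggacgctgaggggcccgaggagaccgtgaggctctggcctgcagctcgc
KIF11: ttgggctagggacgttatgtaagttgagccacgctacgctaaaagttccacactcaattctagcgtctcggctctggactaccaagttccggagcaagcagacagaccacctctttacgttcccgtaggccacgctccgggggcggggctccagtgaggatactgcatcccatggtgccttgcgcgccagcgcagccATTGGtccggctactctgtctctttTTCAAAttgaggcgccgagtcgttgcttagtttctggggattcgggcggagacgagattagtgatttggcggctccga

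GINS2, a subunit of the replicative helicase, lay at 46.1 and 60.9 CPM in DMSO and at 28.9 and 28.9 CPM under compound 6 (−0.89 ± 0.23 SE, adjusted p = 0.10). KIF11, chosen for its window after its value was seen, lay at 51.1 and 69.2 CPM in DMSO and at 34.9 and 35.8 CPM under compound 6 (−0.77 ± 0.18 SE, adjusted p = 0.080). KIF20A, a kinesin of cytokinesis and the lowest mitosis gene, lay at 59.4 and 73.1 CPM in DMSO and at 32.9 and 34.1 CPM under compound 6 (−0.99 ± 0.22 SE, adjusted p = 0.068). In all 3 genes the compound 6 libraries nearly coincided and DMSO replicate 2 was the highest library. The smallest differences were −0.09 for POLE2, a polymerase subunit, whose sign changed when 1 library was left out, and −0.12 for BUB3, a checkpoint protein. TOP2A, a topoisomerase named after its value was seen, missed the threshold in the larger fit (adjusted p = 0.080) and passed with the replicate block (adjusted p = 0.047, 2.79e-07 to 0.51 over 22 alternatives). Of 24 regulators of the G1/S step, none passed in the larger fit, with 11 at an unadjusted p under 0.05, while 9 fell and 1 rose in the fit of 4. The gene that rose there was CDKN2B, an inhibitor of cyclin-dependent kinases, from 0.512 and 0.754 CPM to 2.16 and 6.54 CPM (2.74 ± 0.69 SE, adjusted p = 0.094 in the larger fit). E2F8, a repressor of the E2F family, was the lowest at −1.02, and CDKN1A, the p53-induced inhibitor, had a log2-fold change of 0.16 (adjusted p = 0.62).

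Among the lists, the ATF4 response and its amino acid genes held the most increases in the fit of 4 libraries. Of 36 genes tested, 4 rose in the fit of 8 libraries and 21 in the fit of 4, where 4.39% of all genes rose, and both compound 6 libraries were above both DMSO libraries in 32, as in 29.3% of all genes. The median log2-fold change was 0.64, and 0.411 in the fit of 4 without compound 6 replicate 2. The ATF4 letters TTGCATCA were found in the windows of 4 of 30 genes (13.3%), against 0.449% of all windows. All 4 genes, CARS1, AARS1, NARS1 and MARS1, encode tRNA synthetases, and none of them passed in the fit of 8 libraries. The letters were in 0 of the 43 windows of genes that rose. A link between the letters and the changes was not tested. The window of MARS1 (chr12:57487818-57488117, plus strand) is shown with these letters in capitals.
MARS1: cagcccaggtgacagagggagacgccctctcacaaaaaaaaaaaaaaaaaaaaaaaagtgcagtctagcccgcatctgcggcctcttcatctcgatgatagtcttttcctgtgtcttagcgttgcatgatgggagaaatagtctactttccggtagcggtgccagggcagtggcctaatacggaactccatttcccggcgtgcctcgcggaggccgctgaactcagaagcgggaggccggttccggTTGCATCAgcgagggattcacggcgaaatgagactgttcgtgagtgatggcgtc

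ASNS, asparagine synthetase, rose from 59.1 and 53.3 CPM to 154 and 209 CPM (1.69 ± 0.25 SE, adjusted p = 0.033). SLC7A11, the cystine importer, rose from 64.9 and 56.6 CPM to 168 and 218 CPM (1.67 ± 0.29 SE, adjusted p = 0.048, or 0.058 with the replicate block). PCK2, the mitochondrial form of phosphoenolpyruvate carboxykinase, rose from 199 and 158 CPM to 295 and 306 CPM (0.75 ± 0.12 SE, adjusted p = 0.046). The fourth was GDF15, described above. In these genes no DMSO library came near the lowest compound 6 library. MARS1, methionyl-tRNA synthetase, passed in the fit of 4, at 186 and 205 CPM in DMSO and 272 and 348 CPM under compound 6 (0.67 ± 0.16 SE, adjusted p = 0.078 in the larger fit). ATF4 itself, which is controlled largely at translation, lay at 424 and 406 CPM in DMSO and at 479 and 630 CPM under compound 6 (0.42, adjusted p = 0.15). DDIT3, a stress-induced factor downstream of ATF4, had a log2-fold change of 1.20 (adjusted p = 0.23), TRIB3 one of 0.94 (adjusted p = 0.23), and ALDH18A1, of proline synthesis, was the lowest at −0.35. CHAC1, a glutathione-degrading target of ATF4, was listed at 0 in every library. Endoplasmic reticulum chaperones had a median of −0.22 over 19 genes (−0.147 without DMSO replicate 2), of which none passed in the larger fit (7 at an unadjusted p under 0.05) and 5 fell in the fit of 4. CRELD2 was the lowest of them at −0.57 and DNAJB9, a co-chaperone, the highest at 0.41.

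Among 30 NRF2 targets, 5 rose in the fit of 8 libraries and 10 in the fit of 4, where 4.39% of all genes rose. The median was 0.27, and 0.170 in the fit of 4 without compound 6 replicate 2. Besides SLC7A11, these 5 were the export pumps ABCC3 and ABCC2, the aldo-keto reductase AKR1B10 and the autophagy receptor SQSTM1. ABCC3 rose from 63.0 and 51.3 CPM to 133 and 136 CPM (1.24 ± 0.12 SE, adjusted p = 0.0068, 1.41e-15 to 0.13 over 22 alternatives). ABCC2 rose from 585 and 565 CPM to 962 and 1062 CPM (0.82 ± 0.13 SE, adjusted p = 0.042). AKR1B10 rose from 435 and 390 CPM to 663 and 681 CPM (0.70 ± 0.12 SE, adjusted p = 0.048). In these 3 genes replicates lay close together in both groups. SQSTM1 rose from 399 and 351 CPM to 757 and 1217 CPM (1.40 ± 0.23 SE, adjusted p = 0.048, or 0.056 with the block), with replicate 2 of compound 6 the higher. NQO1, a quinone reductase and a classic NRF2 target, lay at 1365 and 1430 CPM in DMSO and 1385 and 1420 CPM under compound 6, with a log2-fold change of 0.005 and a 95% interval from −0.21 to 0.22. HMOX1, haem oxygenase, had a log2-fold change of 0.17, and PRDX1, a peroxiredoxin, was the lowest at −0.25. SQSTM1 was also the gene that rose among 34 genes of autophagy and lysosomes, where 5 rose in the fit of 4 and the median was 0.15 (0.069 without compound 6 replicate 2), and NEU1, a lysosomal sialidase, was the lowest at −0.30.

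CYP1A1, the P450 enzyme induced through AHR, rose from 5.94 and 4.69 CPM to 15.5 and 23.2 CPM (1.87 ± 0.23 SE, adjusted p = 0.023). The letters TNGCGTG, a core of the AHR element, were held by 7.54% of all windows and by 1 of the 43 windows of genes that rose (2.33%). That window was of SPON2, and the window of CYP1A1 did not hold the letters. The other 3 AHR targets tested, TIPARP, ALDH3A1 and UGT1A6, did not pass, and TIPARP was the lowest at 0.06, with a sign that changed when 1 library was left out. Of 8 targets of the drug receptors PXR and CAR, CYP2B6 rose in the fit of 4 libraries, from 10.3 and 6.45 CPM to 21.0 and 29.8 CPM (1.62 ± 0.34 SE, adjusted p = 0.058 in the larger fit, where none passed and 3 had an unadjusted p under 0.05). The median of the 8 was 0.03, or 0.338 without compound 6 replicate 2, and SULT2A1, a sulphotransferase, was the lowest at −0.52. MT2A, a metal-binding metallothionein, rose from 38.3 and 40.03 CPM to 74.7 and 123 CPM (1.33 ± 0.22 SE, adjusted p = 0.047). The other 5 genes of this list did not pass, with MT1E at 0.85, MT1G at 0.15, MT1F and the zinc exporter SLC30A1 at 0.14, and MT1X at −0.12, and the signs of MT1G, MT1F and MT1X changed when 1 library was left out.

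S100 proteins had the highest median of the 28 lists in the fit of 8 libraries, at 1.05 over 12 genes, and it was 0.602 with no filter and 0.607 with at least 10 counts in every library. Besides S100A3, 3 members rose in the fit of 8 libraries, and 6 rose in the fit of 4, where 4.39% of all genes rose. S100A11 rose from 14.96 and 10.9 CPM to 34.3 and 42.4 CPM (1.58 ± 0.23 SE, adjusted p = 0.033). S100A6 rose from 12.3 and 9.55 CPM to 26.7 and 37.4 CPM (1.56 ± 0.28 SE, adjusted p = 0.049, or 0.058 with the block). S100P, the most abundant, rose from 145 and 108 CPM to 284 and 308 CPM (1.22 ± 0.17 SE, adjusted p = 0.024). The 4 libraries kept their groups apart in each, and the lowest of the list was S100A1 at −0.26. Of 18 adhesion and invasion proteins at the cell surface, CDCP1 rose in the larger fit and 8 rose in the fit of 4, with a median of 0.86 that was 0.527 without compound 6 replicate 2. AXL, a receptor tyrosine kinase, lay at 8.92 and 5.44 CPM in DMSO and at 24.8 and 49.4 CPM under compound 6 (2.39 ± 0.49 SE, adjusted p = 0.058). EMP1, a membrane protein, had 3 and 1 counts in DMSO and 28 and 94 under compound 6. The ratio of summed counts was 31.9, with a 95% counting interval from 12.1 to 119 that leaves out the spread between replicates. EMP1 passed in the fit of 4 but not in the larger fit (edgeR, 4.90 ± 1.26 SE, adjusted p = 0.10). LAMA3, a laminin chain, was the lowest at −0.22, with a sign that changed when 1 library was left out.

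Genes of the ERK response included feedback inhibitors and growth factors. Of 25 tested, 2 rose in the fit of 8 libraries and 11 in the fit of 4, where 4.39% of all genes rose. The median was 0.49. SPRY4, an inhibitor of the pathway, rose from 97.5 and 90.5 CPM to 189 and 228 CPM (1.15 ± 0.15 SE, adjusted p = 0.023), and DUSP6 is given above. DUSP5, a nuclear ERK phosphatase, differed most and varied most between replicates, at 0.512 and 0.419 CPM in DMSO and 6.48 and 36.2 CPM under compound 6 (5.50 ± 1.30 SE, adjusted p = 0.079). EREG, an EGF receptor ligand named after its value was seen, lay at 16.8 and 12.3 CPM in DMSO and at 52.98 and 102 CPM under compound 6 (2.42 ± 0.47 SE, adjusted p = 0.054). FOSB, a factor of the AP-1 family, was the lowest at −0.50, with values from −1.157 without compound 6 replicate 1 to −0.04 without its replicate 2. In DUSP5 and EREG replicate 2 of compound 6 was far above replicate 1. The AP-1 letters TGANTCA were found in 2 of the 43 windows of genes that rose (4.65%) and in 4.33% of all windows.

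Of 13 genes of the inflammatory response tested, CSF1, the macrophage growth factor, rose from 5.23 and 4.19 CPM to 11.4 and 15.7 CPM (1.53 ± 0.27 SE, adjusted p = 0.048, or 0.055 with the block). In the fit of 4, 5 of 12 tested rose, against 4.39% of all genes. The median of the list was 0.52, or 0.783 without DMSO replicate 1. IL11, a cytokine of the IL-6 family, had 1 and 2 counts in DMSO and 9 and 114 under compound 6, a ratio of summed counts of 42.9 with a 95% counting interval from 14.3 to 211, and it did not pass (adjusted p = 0.19). NFKB1 was the lowest at −0.20. IL6, IL1A, IL1B, CXCL1, CXCL10, CCL2, CSF2 and PTGS2 were listed at 0 in all 8 libraries, so that nothing can be said of them. ICAM1, an adhesion receptor for leukocytes that was named after its value was seen, missed the threshold in the larger fit (0.52 ± 0.13 SE, adjusted p = 0.098) and passed with the block (adjusted p = 0.047, 0.000669 to 0.54 over 22 alternatives).

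Of 24 vasculature genes, 2 rose, JAG1 among them, while 4 rose and 1 fell in the fit of 4, and the median was 0.32, or 0.208 without DMSO replicate 2. Of 14 TGF-beta pathway genes, 1 rose in the larger fit and 3 in the fit of 4, and their median was 0.31, or 0.196 without DMSO replicate 2, with SMAD6 the lowest at −0.24. ADM, the vasodilator adrenomedullin, was the lowest vasculature gene at −0.54. JAG1 was the gene that rose among 9 Notch pathway genes, whose median was 0.05, or 0.383 without compound 6 replicate 1, and whose lowest member was the receptor NOTCH2 at −0.35. None of the 14 targets of YAP and TEAD passed in the larger fit (4 at an unadjusted p under 0.05), 2 rose in the fit of 4, and their log2-fold changes ran from −0.02 for AMOTL2, whose sign changed when 1 library was left out, to the value of AXL above. Of 24 p53 targets, GDF15 rose, while 3 rose and 2 fell in the fit of 4, the median was 0.09 (0.021 without DMSO replicate 2, 0.041 and 0.036 without compound 6 replicate 1 or 2) and BTG2, an antiproliferative gene, was the lowest at −0.84.

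Secreted liver proteins were more often lower than higher, with 27 of 33 log2-fold changes below 0, against 6332 of all 13400 genes. Of the 33 tested, APOA4 fell in the fit of 8 libraries. In the fit of 4, 11 of 32 fell, against 3.49% of all genes. The median was −0.20, or −0.341 without compound 6 replicate 1. APOC3, an apolipoprotein of triglyceride-rich particles, was the lowest, at 60.2 and 44.2 CPM in DMSO and 25.7 and 16.2 CPM under compound 6 (−1.32 ± 0.29 SE, adjusted p = 0.066). APOA1, the main protein of HDL, lay at 3556 and 3278 CPM in DMSO and at 1996 and 1632 CPM under compound 6, missed the threshold (−0.91 ± 0.17 SE, adjusted p = 0.051) and passed with the block (adjusted p = 0.044, 2.21e-15 to 0.44 over 22 alternatives). TF, transferrin, did the same (−0.57 ± 0.12 SE, adjusted p = 0.058, and 0.030 with the block, 4.34e-07 to 0.45 over 22 alternatives). APOA1 and TF were named with the block's result in view, and their groups did not overlap. ITIH3, an inter-alpha-trypsin inhibitor chain, was the highest at 0.46 (adjusted p = 0.23), and ALB had a log2-fold change of −0.36 (adjusted p = 0.19). The sum of the hepatocyte markers, which overlap this list, was lower under compound 6 as given above, and their part in the result was not tested.

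Among the hepatocyte transcription factors, none of 18 was past the threshold (3 had an unadjusted p under 0.05), 1 rose and 1 fell in the fit of 4, and the median was −0.17 with a range from −0.73 for ONECUT1 (−1.20 without compound 6 replicate 1 and −0.379 without its replicate 2) to 0.54 for NR0B2. None of 26 glycolysis and hypoxia genes passed (12 at an unadjusted p under 0.05), while 2 rose and 4 fell in the fit of 4, with a median of −0.24. PFKP, a phosphofructokinase, was the highest, at 5.43 and 3.35 CPM in DMSO and 13.2 and 16.3 CPM under compound 6 (1.76 ± 0.33 SE, adjusted p = 0.054), and the aldolase ALDOC the lowest at −0.65. Of 16 genes of fatty acid oxidation none passed in the larger fit (4 at an unadjusted p under 0.05) and 2 fell in the fit of 4, with values from −0.76 for FABP1, a fatty acid carrier, to 0.26 for ACADVL. No member of the 13 genes encoded in mitochondria or of the 13 heat shock genes passed in either fit, with 0 and 3 at an unadjusted p under 0.05 in the larger one. Their values ran from −0.22 for MT-CO3 to 0.22 for MT-ND4 and from −0.42 for HSPB1 to 0.10 for HSPA8, and the signs of MT-ND4 and HSPA8 changed when 1 library was left out.

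**Figure D3:**
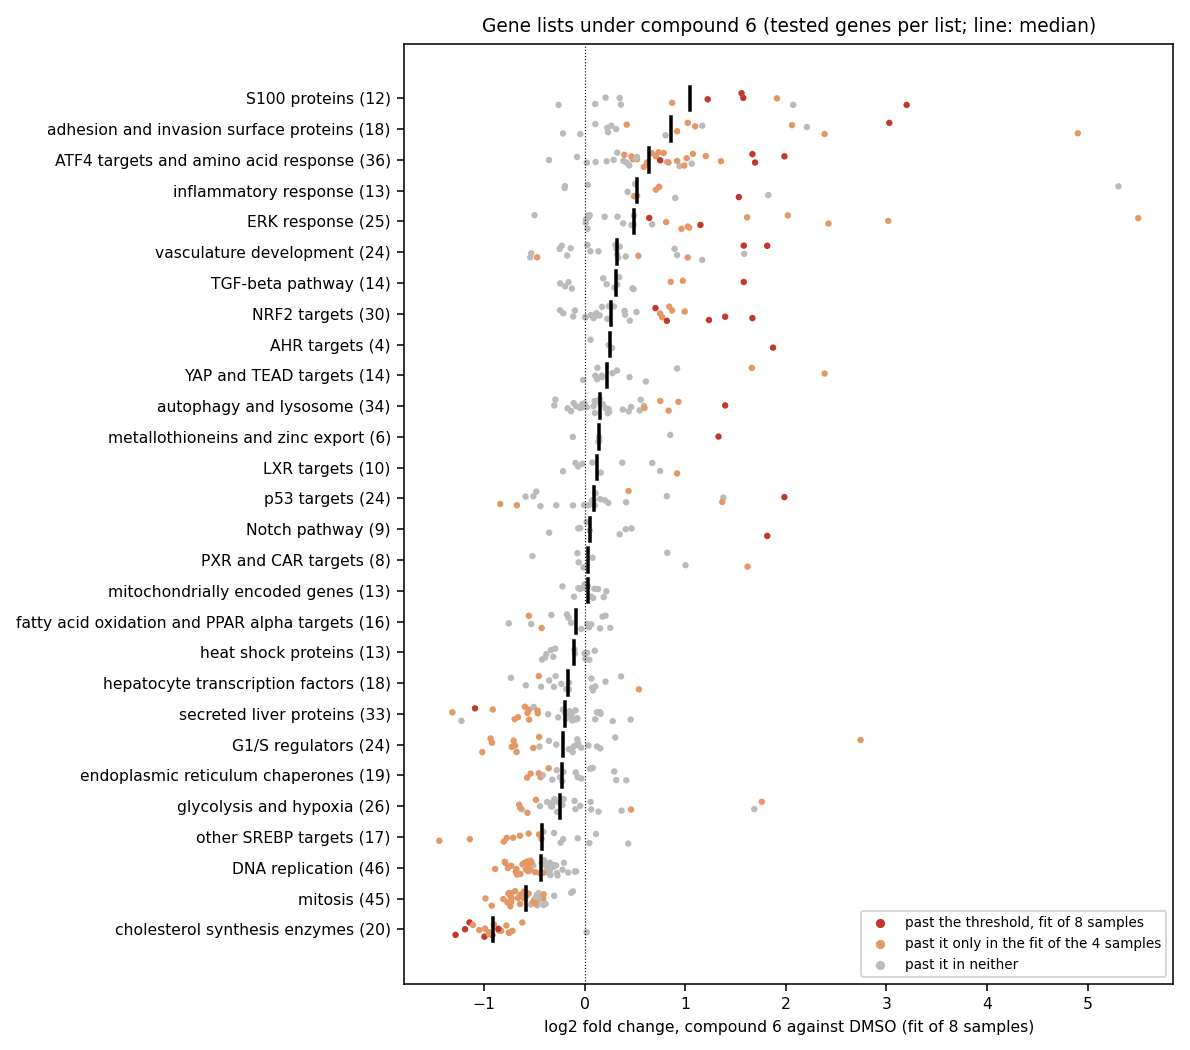
Log2-fold change of compound 6 against DMSO (fit of 8 libraries) for each tested gene of the 28 lists, as dots, with the median of a list as a black line; red dots passed in the fit of 8 libraries, orange dots in the fit of 4 but not in that of 8, grey dots in neither. Cholesterol synthesis has the lowest median (−0.91) and S100 proteins the highest (1.05), and the lists of DNA replication and mitosis lie below 0 without a red dot.

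Further genes passed in the fit of the 4 libraries compared but not in that of 8, and several were close to the detection limit. KLHDC7B had 0.512 and 0.921 CPM in DMSO and 3.04 and 33.8 CPM under compound 6 (4.63 in the larger fit, adjusted p = 0.17), so that replicate 2 carried most of the difference. IGFN1 had 0 and 2 counts in DMSO and 17 and 64 under compound 6, a ratio of summed counts of 42.4 with a 95% counting interval from 11.4 to 356. ENSG00000182021 had 0 and 3 counts in DMSO and 14 and 71 under compound 6, a ratio of 29.6 with an interval from 9.80 to 146. ENSG00000276077 had 0 counts in DMSO and 19 and 26 under compound 6, at least 7.75-fold higher against 3 counts per library. In these genes replicate 2 of compound 6 held more counts than replicate 1. On the lower side, OLFML1, a secreted olfactomedin-like protein, had 3.49 and 2.18 CPM in DMSO and 0.883 and 0.284 CPM under compound 6. PCYT1B, of phosphatidylcholine synthesis, and COL2A1, a collagen chain, had log2-fold changes of −1.59 and −1.45. SULT1A4, a sulphotransferase with a near-identical copy, had 49.2 and 111 CPM in DMSO and 23.6 and 28.99 CPM under compound 6, and its reads cannot be assigned with certainty. The same holds for ENSG00000268173 and ENSG00000254692, which overlap other genes.

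Compound 6 differs from compound 4 by a cyclohexyl in place of a tert-butyl group beside each hydroxyl group, and from compound 5 also in the bridge and the other ring substituents. A difference between compounds covers structure and concentration together, since each was given at its own IC50. Against compound 5, 68 genes were higher (0.507%) and 70 lower (0.522%) under compound 6 in the fit of 8 libraries. With p-values adjusted over both comparisons of compounds, 75 genes remained against compound 5 and 11 passed against compound 4. Fewer genes than these 138 passed against compound 5 whenever 1 library was left out, also where that library was of DMSO or compound 4. Such a fit has 3 residual degrees of freedom in place of 4 and leaves 1 library in a group. What lowered the number was not tested. With the replicate block 269 genes passed, and 49 in a fit of the 4 libraries of the 2 compounds.

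KNG1, the kininogen of plasma, differed most among genes with a symbol, at 0.392 and 0.379 CPM under compound 6 and 6.34 and 7.46 CPM under compound 5 (−4.13, 95% interval −5.00 to −3.26). SLC51A, a bile acid and steroid exporter subunit, had 10.4 and 8.05 CPM under compound 6 and 45.2 and 49.2 CPM under compound 5 (−2.36, −2.81 to −1.90). The DMSO libraries had 0.717 and 1.09 CPM for KNG1, both above compound 6, and 7.69 and 8.12 CPM for SLC51A. For KNG1 these values rest on 7 and 13 counts in DMSO and 4 and 4 under compound 6, close to the floor of 3 counts per library. AOC4P, a pseudogene, and MT1X were lower, with log2 differences of −2.12 and −1.78. ENSG00000285953, with 0 counts under compound 6, was at least 9.36-fold lower than under compound 5. SRCIN1, an inhibitor of SRC kinases, was higher, at 11.97 and 11.5 CPM under compound 6 and 2.47 and 3.02 CPM under compound 5 (2.08, 1.63 to 2.53). MEGF6, an EGF-like protein, had 43.1 and 43.2 CPM under compound 6 and 13.1 and 7.80 CPM under compound 5 (2.07, 1.49 to 2.65). In these genes the libraries of both compounds stood apart. EXOC3L4, SLC26A9 and ASMTL-AS1 were higher by 1.97, 1.87 and 1.81.

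**Figure D4:**
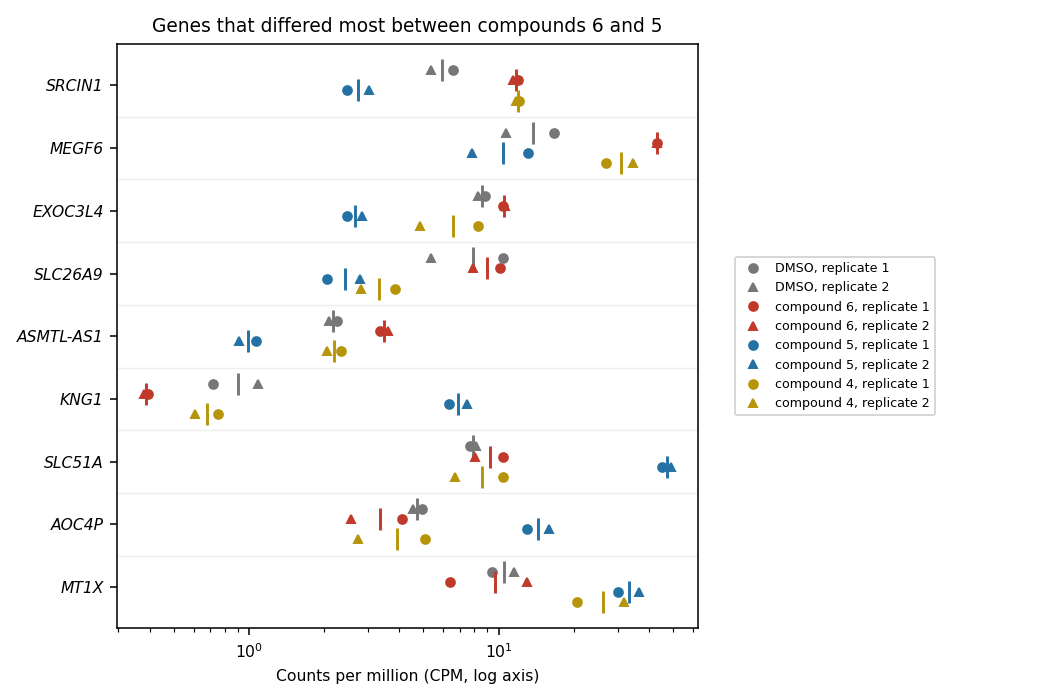
CPM in all 8 libraries for 9 of the 10 genes with the largest difference between compounds 6 and 5, each axis as labelled. KNG1 and SLC51A are high under compound 5 alone, while MEGF6 is highest under compound 6 and the libraries of compounds 6 and 5 do not overlap in any of the 9.

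Within the lists, 6 cholesterol enzymes were higher under compound 6 than under compound 5, and none was lower. HMGCS1 lay at 110 and 103 CPM under compound 6 and 46.0 and 54.2 CPM under compound 5 (1.08, 95% interval 0.79 to 1.36), and MSMO1, IDI1, LSS, TM7SF2 and FDFT1 were higher by 1.501, 1.132, 1.124, 1.045 and 0.962. EBP was near 0, at −0.01 (−0.37 to 0.35). Of the other SREBP targets 4 were higher, NPC1L1, STARD4, ACSS2 and ELOVL6. Among secreted liver proteins 5 were lower under compound 6, namely KNG1, ITIH3 and the fibrinogen chains FGA, FGB and FGG, the latter with log2 differences of −1.13, −0.997 and −0.911. For the fibrinogen chains the difference was made of lower values under compound 6 and higher values under compound 5 than in DMSO, as for FGA with 530 and 510 CPM in DMSO, 384 and 305 CPM under compound 6 and 728 and 781 CPM under compound 5. Of the metallothionein list 4 were lower, MT1X, MT1G, MT1F and SLC30A1, and of the chaperones DNAJB9 and PDIA4. ABCC3, which rose under compound 6, was at 56.6 and 52.0 CPM under compound 5 (1.31, 1.04 to 1.58).

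Against compound 4, 0 genes passed (edgeR's quasi-likelihood test), 945 had an unadjusted p under 0.05 (7.05%), and DESeq2 called 59. This does not show that the 2 compounds act alike. HMGCS1 had 56.4 and 48.3 CPM under compound 4, a log2 difference of 1.02 with a 95% interval from 0.73 to 1.31 (adjusted p = 0.055). CYP1A1 had 59.5 and 69.1 CPM under compound 4 with a difference of −1.73 (−2.17 to −1.30, adjusted p = 0.055). SLC16A6 had 53.8 and 53.6 CPM under compound 4, with a difference of −1.05 (−1.36 to −0.74, adjusted p = 0.055). The libraries of both compounds did not overlap in these 3 genes, named after their values were seen. For other genes the interval lay close to 0, as for ABCC3 (−0.01, −0.28 to 0.26), SRCIN1 (−0.03, −0.43 to 0.38) and FGA (0.03, −0.31 to 0.36).

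Of the 77 genes called for compound 6 against DMSO, 4 were called for neither of the other compounds against the same DMSO libraries. PABPC1L, a poly(A)-binding protein, rose from 33.1 and 32.7 CPM to 65.6 and 89.2 CPM (1.24 ± 0.19 SE, adjusted p = 0.037), with 36.1 and 31.3 CPM under compound 5 and 38.8 and 53.2 CPM under compound 4. It was higher than under compound 5 by 1.20 (95% interval 0.79 to 1.62, adjusted p = 0.020), and the difference from compound 4 did not pass (0.75, 0.338 to 1.158, adjusted p = 0.36). FAM86B3P, a pseudogene, rose from 6.15 and 4.94 CPM to 13.9 and 13.3 CPM, and PCK2 is given above. Neither differed from compound 5 past the threshold, with adjusted p = 0.053 for FAM86B3P and 0.074 for PCK2, or from compound 4 (adjusted p = 0.52 and 0.61), and PCK2 was close to the threshold under compound 4 against DMSO (adjusted p = 0.051). The fourth, ENSG00000285953, overlaps CYP51A1.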

How the data were processed

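Messenger RNA from 8 samples of CYP2C19-overexpressing HepG2 cells was sequenced with a directional library kit. The authors deposited a table of whole-number counts per gene, not normalised, for 60230 genes. According to their methods and processing notes, they used FastQC 0.12.0, Salmon 1.5.0 against GENCODE transcripts, summarised these per gene and tested with DESeq2 1.38.3. Salmon's strand setting is not given in the sources used here, so overlapping and antisense genes are uncertain, and near-identical copies share reads. Such counts depend on how reads were divided between transcripts. The column names of DMSO replicate 1 and compound 4 replicate 1 hold the word merged and 2 S numbers. What was merged is not stated there. There were 0 columns of other samples.

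Genes with too few counts were removed with filterByExpr (minimum count 10), which left 13400. One fit of all 8 libraries was made with edgeR 4.0.16 in R 4.3.3 (TMM scaling, quasi-likelihood test), with Benjamini-Hochberg adjustment over all genes tested and a threshold of 0.05. CPM were computed from the TMM-scaled library size. The script was tested on simulated data. Alternatives were DESeq2 1.42.0, its size factors, no filter, at least 10 counts in every library, fewer groups, the replicate number as a block and each library left out. The robust empirical Bayes fit and further versions of the 4-library fit were chosen after seeing the data. Library totals ran from 9791659 to 17814595 counts, and intervals on ratios of counts cover counting error only, since PCR copies were not told apart.

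The labels give day 1 or day 2 as the replicate number in each group, which is where the pairing comes from. Deviations of same-numbered libraries from the group means had correlations between −0.144 and 0.201 over genes in the 6 pairs of groups, and 0.104 for DMSO with compound 6. The block was used as an alternative. A permutation test of 2 libraries against 2 cannot reach 0.05, and none was run.

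The gene lists and the members described were chosen with earlier results of these data known. The genes named were the 12 largest increases and 11 largest decreases past the threshold whose groups do not overlap and whose mean reached 1 CPM; in each list the members past the threshold and the highest and lowest; the 5 largest differences in each direction from compound 5; the 6 in each direction called in the fit of 4 libraries but not in that of 8; genes called for compound 6 alone; and CYP2C19. Gene positions came from GENCODE release 29, and promoter windows of 300 bases from RefSeq on GRCh38.p14, found for 10033 of 13392 tested symbols. Values of some genes that this rule picks are not reported here, while the counts and medians include them.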

Additional observations from a re-analysis of the deposited data

How the results depend on the processing

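The number of genes past the threshold for compound 6 against DMSO, 77, depended on the fit. It was 547 with DESeq2, 47 with DESeq2's size factors, 120 without the compound 4 samples, 452 without those of compound 5, 198 with at least 10 counts in every library, 1355 with no filter, 157 with the robust fit, 1023 with only the 4 libraries compared and 2253 with these and the replicate block, and the cause was not tested. With the replicate block on all libraries it was 68. Leaving out 1 library gave 2 to 432 genes, and 265 to 1302 in the fit of 4, where the lone library of a group is assumed to vary like the other group. Against compound 5, the count of 138 became 379 with DESeq2, 990 with no filter, 49 with only the 4 libraries, 269 with the replicate block and 0 to 105 with 1 library left out. Against compound 4, the count of 0 became 59 with DESeq2, 11 without the compound 5 samples, 5 with at least 10 counts, 259 with no filter, 7 with the robust fit, 1 with the replicate block and 0 to 13 with 1 library left out. The replicate block changed no other count by over 1.5 times. Leaving out a replicate number in all groups was not run, as no residual degrees of freedom remain.

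Some genes past no threshold turned their sign when 1 library was left out, over both fits. Among those named by the rule, the log2-fold change ran from −0.74 to 0.29 for MT1X, −0.31 to 0.45 for CYP2C19, −0.10 to 0.14 for PMVK, −0.233 to 0.039 for POLE2, −0.039 to 0.122 for TIPARP, −0.69 to 0.15 for LAMA3, −0.029 to 0.477 for MT-ND4, −0.07 to 0.28 for HSPA8 and −0.23 to 0.18 for AMOTL2. For PMVK it was −0.002 without the compound 5 samples and −0.001 with only the 4 libraries. The median of a list kept its sign in 24 of 28 lists, and that of AHR targets, fatty acid oxidation, mitochondrially encoded genes and metallothioneins did not. DESeq2 gave no adjusted p for ENSG00000276077. At 2 libraries a group, genes near 1 CPM rest on few counts.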

Other observations

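Among the 66 genes that rose, 4 lie on the distal long arm of chromosome 17 in GENCODE release 29 coordinates (GRCh38). These are TMC6 at 78110458 to 78132407, DNAH17 at 78423697 to 78577394, TIMP2 at 78852977 to 78925387 and METRNL at 83079691 to 83095119. TMC6 rose from 49.0 and 45.1 CPM to 109 and 152 CPM, and DNAH17, an axonemal dynein chain, from 21.8 and 16.4 CPM to 52.1 and 50.9 CPM. METRNL, a secreted protein, rose from 6.56 and 7.20 CPM to 15.7 and 26.2 CPM. The genes were picked from the calls for their position, so that no test applies to their closeness. The share of all tested genes that lies in this stretch was not taken. SLC16A6, ABCC3, PLCD3 and KRT23 also rose and lie elsewhere on chromosome 17.

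S100A3, S100A6 and S100A11 lie on chromosome 1. S100A6, starting at 153534599, and S100A3, at 153547329, are close together, while S100A11, at 152032506, is farther off. S100A3 overlaps S100A4. How far reads of neighbouring S100 genes were divided between them was not tested.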
